A study of Homo sapiens with 8 samples.

Results

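H3K4me3 regions that were called in WT clones of U2OS, a human osteosarcoma cell line, and not in ZBTB48 KO clones of it numbered 617 of 31195. Each was chosen by the calls themselves: the peaks of 6 libraries on chromosomes 1 to 22, X and Y were merged wherever they overlapped or touched, and a region was kept when a peak lay in at least 2 of the 3 WT lists and in 0 of the 3 KO lists. The 617 are called WT-favouring regions below. The mirrored rule, at least 2 of 3 KO lists and 0 of 3 WT lists, gave 438 KO-favouring regions, which serve as the comparison. The shares were 1.98% and 1.4% of all regions. Both counts changed when 1 library was left out. Leaving out a list of the favoured genotype made the rule stricter, since both remaining lists then had to hold a peak. Leaving out a list of the other genotype made it looser, so part of each change follows from the rule. Of WT-favouring regions there were 246, 204 and 369 without WT replicate 1, 2 or 3 and 1935 without KO replicate 1, while the KO-favouring regions numbered 137, 254 and 214 without KO replicate 1, 2 or 3 and 916 without WT replicate 3. Because the calls selected the regions, every difference in peak strength or width between the genotypes is a description and carries no test.

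H3K4me3 had been profiled by chromatin immunoprecipitation and sequencing (ChIP-seq) in 3 WT and 3 ZBTB48 KO clones, with 1 library for each clone. All 6 cultures had received IFNγ at 250 U/ml, so no untreated library was compared. The time was recorded as 24 hours, whereas a figure legend of the paper gives a longer one for its H3K4me3 tracks. The clones were derived from a single tumour line. A further 2 input libraries were not analysed here. ZBTB48 itself was marked in every library, since peaks over its 5′ end covered 3161, 3330 and 1821 bp in the WT lists and 1855, 1555 and 1241 bp in the KO lists. H3K4me3 at that promoter therefore does not check the knockout. As a check of the cell type, 4 of 10 osteoblast-lineage promoters had a peak in all 6 libraries and 5 had none in any, and 8 of 9 promoters of B cell and other blood cell markers had none in any library.

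The lists differed in kind before any comparison of genotypes. The median fold enrichment of a peak was 13.4 and 14 in WT replicates 1 and 2, but 4.19 in WT replicate 3 and from 4.32 to 4.65 in the KO lists. The lists held from 21712 to 26370 peaks, with KO replicate 1 the longest. They give no read counts, so the depth behind a peak is unknown here, and a region without a peak was not called at the threshold of that list, which is not a measured absence of the mark. Some properties are given below also separately for the regions that rested on WT replicates 1 and 2 alone and for those called in WT replicate 3. These are width, promoter share, distance to regions called in all 6 libraries, other members within 100 kb, and the share of repeated DNA. The distance to 5′ ends is given separately for the latter group only. Other placements, base composition, runs within 1 Mb, shares by chromosome, motifs and chromosome ends are given for all members only.

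H3K4me3 is the trimethylation of lysine 4 on histone H3. It marks the promoters of genes that are active or poised, where it forms strong peaks around CpG-rich 5′ ends, while weaker and narrower patches also occur at enhancers. ZBTB48, also known as TZAP, is a zinc finger protein that binds telomeric repeats and the promoters of a small set of genes. CIITA, the class II transactivator, is among these genes. IFNγ induces CIITA in cells that do not normally present antigen, and CIITA then switches on the MHC class II (MHC-II) genes by docking on factors bound to their promoters, among them NF-Y at the Y box, whose core reads CCAAT.

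The sequences below are shown because they are the promoters of MHC-II genes that lay in the set. They are bases upstream of 5′ ends that lay in WT-favouring regions, taken from RefSeq (GRCh38.p14), read 5′ to 3′ along the gene and cut off where an annotated exon began. The capitals mark CCAAT or its reverse complement ATTGG, and in HLA-DQA1 also TTCNNNGAA. The stretches lie at chr6:33009592-33009841 (minus strand, HLA-DOA), chr6:32817003-32817252 (minus strand, HLA-DOB), chr6:32953123-32953347 (minus strand, HLA-DMA) and chr6:32637156-32637400 (plus strand, HLA-DQA1).
HLA-DOA: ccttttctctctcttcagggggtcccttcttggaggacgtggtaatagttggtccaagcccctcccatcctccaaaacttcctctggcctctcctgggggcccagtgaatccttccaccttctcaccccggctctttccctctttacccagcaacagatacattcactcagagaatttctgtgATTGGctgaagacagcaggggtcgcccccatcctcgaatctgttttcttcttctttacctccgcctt
HLA-DOB: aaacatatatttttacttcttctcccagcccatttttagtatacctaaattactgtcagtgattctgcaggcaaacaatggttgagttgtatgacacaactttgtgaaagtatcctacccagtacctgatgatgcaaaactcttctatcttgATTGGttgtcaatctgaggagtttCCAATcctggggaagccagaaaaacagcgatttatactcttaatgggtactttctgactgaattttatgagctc
HLA-DMA: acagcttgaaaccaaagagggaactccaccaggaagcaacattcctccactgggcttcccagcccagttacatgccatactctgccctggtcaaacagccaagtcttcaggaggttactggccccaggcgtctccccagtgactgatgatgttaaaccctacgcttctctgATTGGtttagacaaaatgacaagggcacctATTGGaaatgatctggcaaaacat
HLA-DQA1: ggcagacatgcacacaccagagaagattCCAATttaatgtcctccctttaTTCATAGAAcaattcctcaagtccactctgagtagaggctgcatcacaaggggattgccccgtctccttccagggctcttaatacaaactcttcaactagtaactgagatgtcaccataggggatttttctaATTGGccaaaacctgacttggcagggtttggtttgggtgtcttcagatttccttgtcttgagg

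All 4 stretches held the CCAAT letters, at 67 bases before the 5′ end in HLA-DOA, at 98 and 74 in HLA-DOB, at 79 and 49 in HLA-DMA and at 222 and 68 in HLA-DQA1. Among 35116 RefSeq promoters, 32.0% held CCAAT or ATTGG in the 250 bases before the 5′ end. A match to 5 letters is a description and does not show that a factor was bound.

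The WT lists did not contribute evenly to the 617 regions. WT replicates 1 and 2 alone called 270 of them, WT replicates 1 and 3 called 103, WT replicates 2 and 3 called 142, and all 3 called 102. WT replicate 3 thus entered 347 regions. Among the KO-favouring regions the uneven share fell to KO replicate 1, which was absent from only 53 of 438, while 85 were called in all 3 KO lists.

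**Figure D1:**
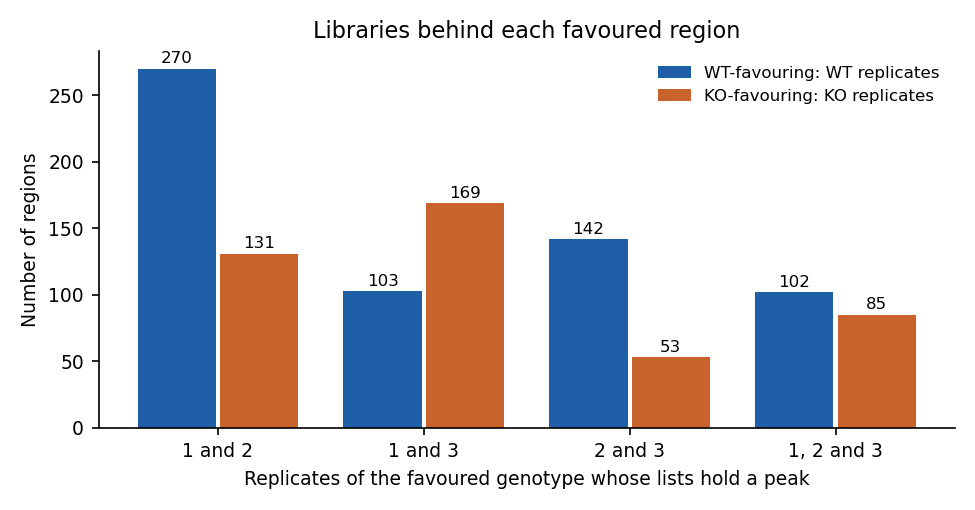
Number of WT-favouring regions (blue) and KO-favouring regions (orange), on the y axis, by the replicates of the favoured genotype whose lists held a peak, on the x axis. The tallest bar is the 270 regions called in WT replicates 1 and 2 only.

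The WT-favouring regions were weak in the lists that called them, and so were the KO-favouring regions. A peak's strength is given here as the −log10 p of the peak caller and as its percentile within its own list, so that 0 is the weakest peak and 100 the strongest. The median −log10 p of the members was 4.63 in WT replicate 1, 5.14 in WT replicate 2 and 4.86 in WT replicate 3, where the medians over all peaks of these lists were 62.6, 68.7 and 30.2. The median percentiles were 9.89, 11 and 11.4. The regions called in all 3 WT lists were little stronger, with median percentiles of 10.2, 13.0 and 13.9. The KO-favouring regions had median −log10 p of 5.096, 4.29 and 4.25 and median percentiles of 11.6, 5.96 and 9.40 in KO replicates 1, 2 and 3.

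In each WT list, 1 member ranked above the list's own median. This was a region at the CCDC106 promoter in WT replicate 1 (percentile 52.1), a region near SLC6A12 in WT replicate 2 (51.2) and a region near ALOX12 in WT replicate 3 (51.6), all named after their values were seen. Of the KO-favouring regions 0, 0 and 1 ranked above the median of KO replicates 1, 2 and 3. The members were also narrow under the rule as stated. Their median width was 779 bp, against 665 bp for KO-favouring regions, 1596 bp for all regions and 3002 bp for the 17920 regions called in all 6 libraries. It was 810 bp in members of WT replicates 1 and 2 only and 766 bp in those called in WT replicate 3. The members were wider under other definitions of a call. Their median width was 5102 bp when a peak needed a fold enrichment of at least 4, where the width of all regions was not computed. It was 4038.5 bp when a peak had to cover 50% of the region. The widest member spanned 6507 bp and the narrowest 248 bp.

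**Figure D2:**
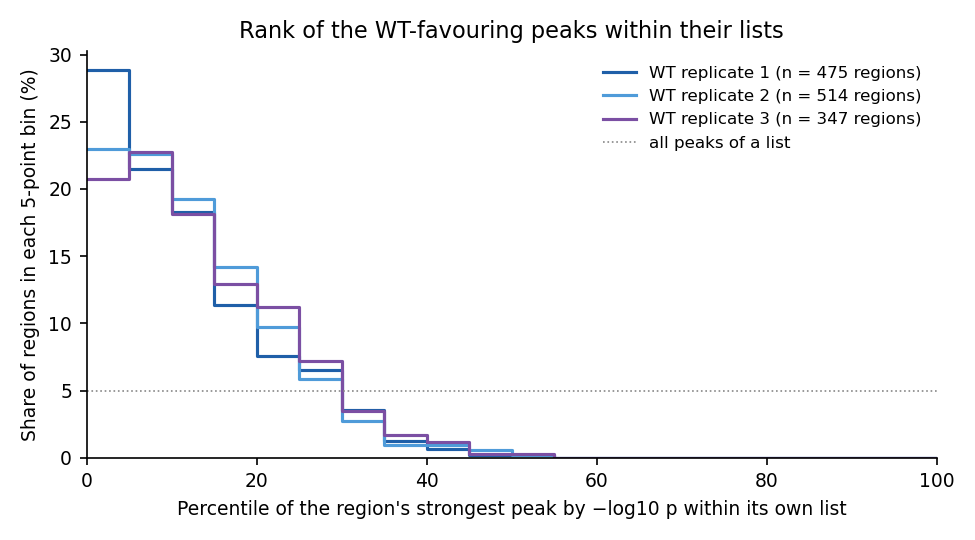
Share of WT-favouring regions, in percent on the y axis, by the within-list percentile of the −log10 p of their strongest peak, on the x axis, in bins of 5 points and separately for each WT replicate. All 3 curves are highest at the weak end and the medians are 9.89, 11 and 11.4, while the dotted line is the share that all peaks of a list have in each bin.

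Few of the WT-favouring regions lay at promoters under the rule as stated. Of the 617, 46 (7.46%, 95% Wilson interval 5.64 to 9.80) overlapped 1 kb on either side of the 5′ end of a protein-coding gene, against 39.5% of all regions, 53.4% of regions called in at least 2 WT lists and 4.79% of KO-favouring regions. The intervals cover the counting of regions only. The share was 8.52% in members of WT replicates 1 and 2 only and 6.63% in those called in WT replicate 3. The share rose under other definitions of a call. It was 73.7% when a peak needed a fold enrichment of at least 4 (2624 regions), where the share over all regions was not computed. It was 70.0% when a peak had to cover 50% of the region (4060 regions), a setting that leaves the 39.5% of all regions unchanged. A further 55 members (8.91%) lay at the promoter of another gene, against 6.85% of KO-favouring regions. Of these 55, 39 were at a long non-coding RNA and 11 at a pseudogene. The rest comprised 77 in exons and 169 in introns of protein-coding genes, 78 in the bodies of other genes and 192 between genes. These were 12.5%, 27.4%, 12.6% and 31.1% of the members, against 12.3%, 26.7%, 11.9% and 37.4% of KO-favouring regions. The median distance to a protein-coding 5′ end was 37090 bp, and 193 members (31.3%) lay more than 100 kb from any. The values were 43549.5 bp and 27.6% in KO-favouring regions, and 63727 bp and 41.2% in members called in WT replicate 3.

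The sequence of the members was poor in CpG. The ratio of observed to expected CpG was 0.331 at the median, close to 0.317 in KO-favouring regions and below 0.473 in all regions and 0.561 in regions called in all 6 libraries. GC content, in contrast, was 45.7% in the members and 53.0% in the KO-favouring regions, with 51.2% over all regions. The 46 members at protein-coding promoters were wider and stronger than the rest. Their median width was 1466 bp against 761 bp, their median CpG ratio was 0.484 against 0.329, and their median percentiles were 22.7, 21.9 and 20.0 in WT replicates 1, 2 and 3 against 9.25, 10.5 and 10.9.

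Where the members lay differed with the WT lists that called them. Of the 270 called in WT replicates 1 and 2 only, 156 (57.8%, interval 51.8 to 63.5) were within 5 kb of a region called in all 6 libraries, and the median distance was 2944.5 bp. Of the 347 called in WT replicate 3, 21 (6.05%, interval 3.99 to 9.07) were, with a median distance of 58776 bp. Among the KO-favouring regions 24 (5.48%) were, with a median distance of 35621 bp. Most members of WT replicates 1 and 2 alone thus lay beside shared regions. These 2 lists also had the widest peaks, with medians of 2297 and 2353 bp against 1275 to 1487 bp in the other 4 lists. The part of peak width in the result was not tested. Of all 177 members within 5 kb of a shared region, 79 lay upstream and 38 downstream of the protein-coding 5′ end in that shared region, 10 lay beside 5′ ends on both strands, and 50 lay beside a shared region without a 5′ end. The sides were not computed for KO-favouring or other regions, and 156 of the 177 were members of WT replicates 1 and 2 only.

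**Figure D3:**
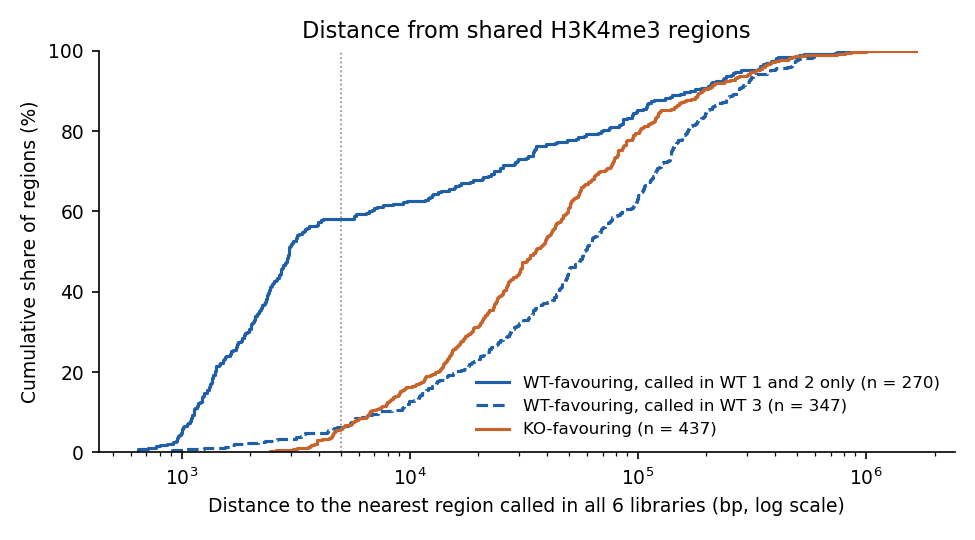
Cumulative share of regions, in percent on the y axis, by distance in bp to the nearest region called in all 6 libraries, on a logarithmic x axis. The solid blue curve, for the 270 WT-favouring regions of WT replicates 1 and 2 only, has reached 57.8% at the dotted line of 5 kb, where the dashed blue curve of the 347 called in WT replicate 3 has reached 6.05% and the orange curve of KO-favouring regions about the same height; 1 KO-favouring region has no such neighbour on its chromosome and is left out.

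Repeated DNA made up more of the WT-favouring than of the KO-favouring regions. A region was counted as repeated when at least 50% of the 24-letter words in its central 200 bases occurred at 10 or more places in the genome. Of the 617 members 70 were repeated (11.3%, interval 9.08 to 14.1), against 19 of 438 KO-favouring regions (4.34%, interval 2.79 to 6.68), 4.97% of all regions and 3.43% of regions called in all 6 libraries. The share was 12.6% in members of WT replicates 1 and 2 only and 10.4% in those called in WT replicate 3. None of the 46 members at protein-coding promoters was repeated, while 36 repeated members lay between genes and 17 in introns of protein-coding genes.

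The share was also compared among regions outside promoters. Away from the promoters of all genes it was 12.8% in the members, 4.65% in KO-favouring regions and 7.73% over all regions. Regions just outside the rule were like the members, with 10.3% of those called in at least 2 WT lists and 1 KO list and 9.03% of those called in 1 WT and 0 KO lists. Reads with several possible placements had been removed before peak calling, so peaks at repeats rest on reads that the aligner placed uniquely. Whether uniquely placed reads were equally frequent there in every library cannot be told from peak lists.

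**Figure D4:**
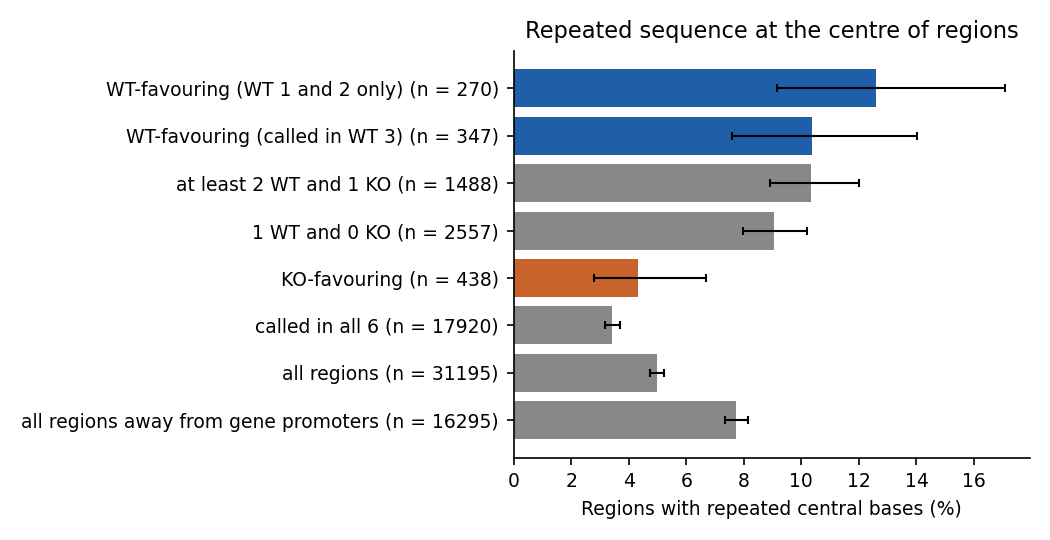
Share of regions, in percent on the x axis, whose central 200 bases are repeated in the genome, for the groups of regions on the y axis. Bars are shares and error bars are 95% Wilson intervals, and both WT-favouring groups (12.6% and 10.4%) lie above KO-favouring regions (4.34%).

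The MHC-II genes were the named list most often found at the members. Of 15 genes of this axis 5 had a WT-favouring region within 1 kb of the 5′ end and none had a KO-favouring region, where 49 of 20033 protein-coding genes (0.245%) had a WT-favouring region. The 5 were HLA-DMA, HLA-DOA, HLA-DOB, HLA-DQA1 and HLA-DRB1. They are neighbours within 423.332 kb of chromosome 6, and the list was chosen with earlier results from these libraries known, so the count is not independent evidence.

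HLA-DMA encodes a chain of HLA-DM, which loads peptides onto MHC-II molecules. Its region (chromosome 6, 32951450 to 32953298) covered 1782, 1305 and 1825 bp in WT replicates 1, 2 and 3, with −log10 p of 17.0, 5.89 and 17.0. The peaks began 177 to 201 bp before the 5′ end in all 3 lists. HLA-DOA and HLA-DOB encode the chains of HLA-DO, which restrains HLA-DM. The HLA-DOA region (33008749 to 33009862) covered 859, 501 and 1114 bp in the 3 WT lists, with −log10 p of 16.5, 4.85 and 11.2. The HLA-DOB region (32816550 to 32817213) covered 520 and 562 bp in WT replicates 1 and 2 and nothing in WT replicate 3. A peak of KO replicate 2 lay 1765 to 2224 bp downstream of the HLA-DOB 5′ end, in a region of its own.

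The other 2 members belong to antigen-presenting molecules themselves. HLA-DQA1 encodes the alpha chain of HLA-DQ, and its region (32637140 to 32638586) covered 969 bp in WT replicate 1 and 981 bp in WT replicate 3, with −log10 p of 4.88 and 3.96. HLA-DRB1 encodes a beta chain of HLA-DR, and its region (32586531 to 32589305) covered 1675, 456 and 2775 bp. The HLA-DRB1 peaks began 543 to 600 bp inside the gene and did not reach the 5′ end. DR and DQ genes have close relatives in the cluster, and how this bore on the placement of reads was not tested. The 24-letter words in the centre of each of the 5 regions occurred at a median of 1 place in the reference. At 4 of the 5 genes, HLA-DOB excepted, WT replicate 3 had a peak. In WT replicate 2 the −log10 p at HLA-DMA, HLA-DOA and HLA-DRB1 was the lowest of the 3 WT values.

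**Figure D5:**
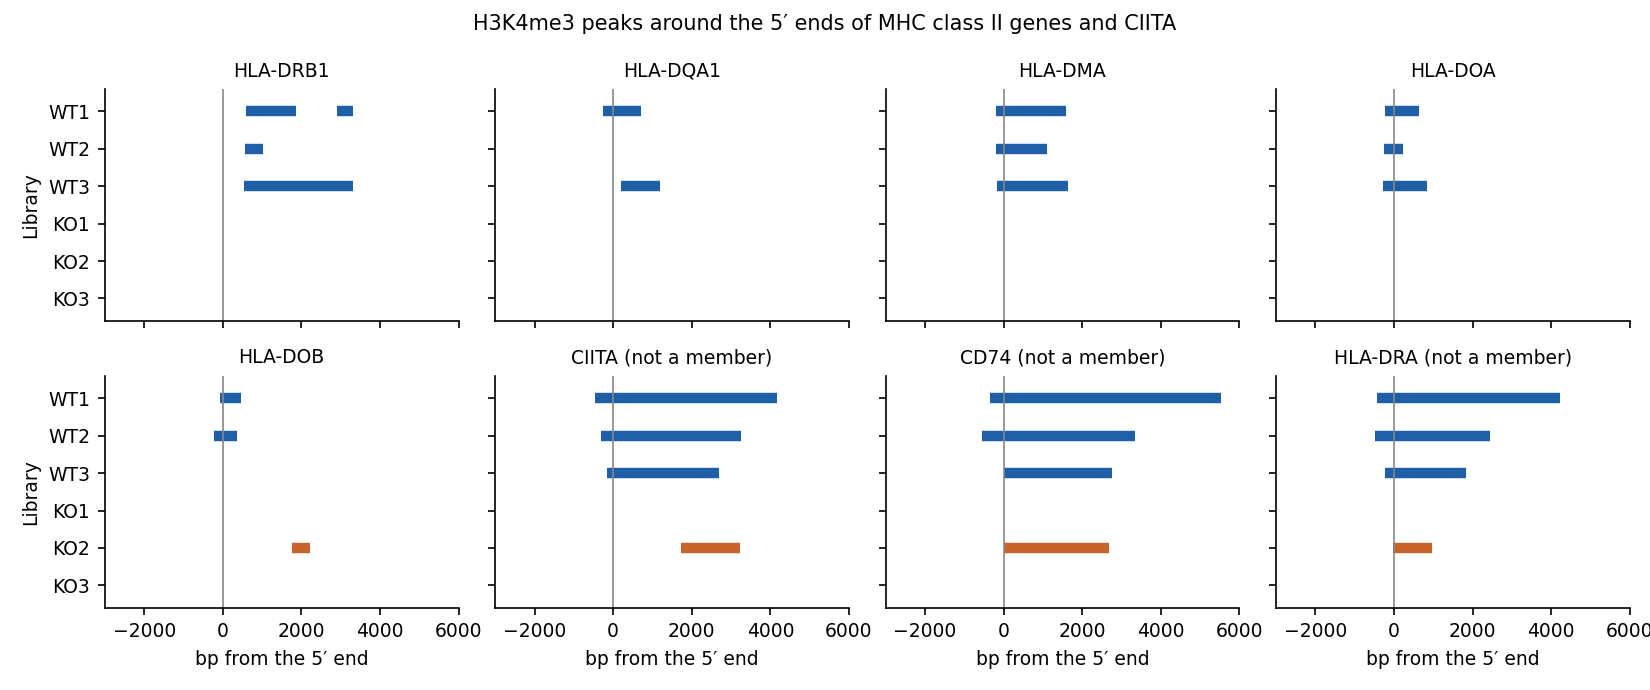
Peaks of each library (rows) drawn as bars by their distance in bp from the 5′ end of each gene, along the direction of transcription, for the 5 MHC-II genes with a WT-favouring region and for CIITA, CD74 and HLA-DRA, which are not members. WT peaks are blue and KO peaks orange, and KO replicate 2 is the sole KO library with a bar in any panel.

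CIITA, CD74 and HLA-DRA stood just outside the rule, and in each case through KO replicate 2 alone. CD74, the invariant chain, was covered over 5868, 3917 and 2761 bp in the WT lists and over 2682 bp in KO replicate 2, where the −log10 q was 2.61 against 69.3, 49.5 and 24.0 in WT. HLA-DRA, the alpha chain of HLA-DR, was covered over 4668, 2930 and 2057 bp in WT and 979 bp in KO replicate 2, with a −log10 q of 4.32 against 39.4, 32.5 and 17.6. At CIITA the covered length was 4630, 3574 and 2837 bp in WT and 1507 bp in KO replicate 2. The −log10 q at CIITA was 1.93 in KO replicate 2 against 48.8, 29.9 and 21.5 in WT. The WT peaks at CIITA spanned its 5′ end, whereas the peak of KO replicate 2 lay 1726 to 3232 bp downstream of it. No KO list thus had a peak within 1 kb of the CIITA 5′ end, although the region was called in KO replicate 2. In every WT list the regions at these 3 genes had a higher −log10 q than any of the 5 MHC-II members. The regions at HLA-DQB1 and HLA-DMB were called in all 6 libraries, although the peak of KO replicate 3 reached the 1 kb around the 5′ end at 1 of them only, and HLA-DPB1 in all but KO replicate 3.

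The other lists held few members. The 5 ZBTB48 target genes CIITA, MTFP1, VWA5A, PXMP2 and SNX15 held none. The regions at MTFP1, PXMP2 and SNX15 were called in all 6 libraries, and that at VWA5A in all but KO replicate 3. At each of these genes every WT list covered more bp than any KO list, a difference that was not tested. The lengths at VWA5A were 1661, 1700 and 1173 bp in WT against 574, 261 and 0 bp in KO. Of 37 interferon-response genes IFI35 alone had a WT-favouring region, covering 575 bp in WT replicate 1 and 274 bp in WT replicate 3, and 27 of the 37 were called in all 6 libraries. None of 16 genes of MHC class I and peptide processing had one, and 15 of them were called in all 6. Among 544 zinc finger genes of the ZNF, ZSCAN and ZKSCAN families there were 3, ZSCAN31, ZNF132 and ZNF597, and among 39 HOX genes there was HOXB2. The 10 telomere-binding and telomerase genes, 53 protocadherins, 73 FOX and SOX genes and 44 collagens held none. Over all 20033 protein-coding genes the share was 0.245%, so a list of such a size without a member is no result about its genes.

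The strongest members, ranked by the lowest of the 3 percentiles among the regions called in all 3 WT lists, were led by ZSCAN31, which encodes a zinc finger protein with a SCAN domain. Its region (chromosome 6, 28334967 to 28337589) covered 2277, 2623 and 1483 bp, with −log10 p of 20.2, 27.2 and 14.7. It lay over the 5′ end of the main GENCODE transcript, at 28336148. RefSeq gives the gene another 5′ end further upstream, and the 250 bases before that one (28356272 to 28356521) lay in no member. NME5, a nucleoside diphosphate kinase relative found in sperm and cilia, came next with 1016, 1041 and 1036 bp and −log10 p of 29.7, 21.2 and 26.4. All 6 libraries had a peak over 5 kb further downstream in NME5, so the KO lists did not lack calls throughout that locus. HLF, a PAR bZIP transcription factor, had 1140, 1537 and 1924 bp over its 5′ end, with −log10 p of 11.3, 10.0 and 11.1. A region of 419 bp at the shared promoter of RNF123 and MST1 completed the 4 protein-coding promoters among the leading 12.

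The other 8 of the leading 12 were at an exon of AHDC1, in an intron of TTC28, at the 5′ end of the long non-coding RNA ENSG00000247134 on chromosome 8, at the pseudogene PNKDP1 on chromosome X, and at 4 sites whose nearest protein-coding genes were NFE2L3, ETNK1, OR2B2 and SRSF1. The sites nearest NFE2L3 and ETNK1 lay in the bodies of genes that are not protein-coding, and those nearest OR2B2 and SRSF1 between genes. Of the 12, 3 were over repeated DNA by the measure above, none of them at a protein-coding promoter. The site nearest NFE2L3, 408216 bp away, covered 725, 811 and 798 bp in the 3 WT lists, with −log10 p of 10.3, 11.1 and 10.4. That near ETNK1, 309770 bp away, covered 966, 774 and 903 bp, with −log10 p of 12.2, 9.96 and 16.9.

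The 5 widest members were mostly called in WT replicates 1 and 2. The widest lay at NFE4 on chromosome 7 and covered 4820 and 5065 bp in these replicates. HOXB2, a homeobox gene of hindbrain patterning, had 6188 and 5102 bp, from 641 bp before its 5′ end to 5546 bp beyond it, with −log10 p of 45.1 and 46.0 in the same lists. WT replicate 3 and the 3 KO lists had no peak there, so the calls at HOXB2 were those of the 2 lists with the higher fold enrichment. An intronic region of NAV2 covered 4089 bp in WT replicate 1 but 414 bp in WT replicate 2. A region at UCN2, which encodes the stress peptide urocortin 2, covered 2429 and 3200 bp. A region in RTKN2 covered 3808 bp in WT replicate 2 and 473 bp in WT replicate 3.

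Most members had no other member nearby under the rule as stated. Of the 617, 52 (8.43%) had another member within 100 kb, against 10.96% of KO-favouring regions, and no run of linked members at that distance was longer than 2. The share was 9.26% in members of WT replicates 1 and 2 only and 7.78% in those called in WT replicate 3. It was 35.9% with a fold enrichment of at least 4, 47.7% with a peak covering 50% of the region, 17.5% without KO replicate 1 and 1.96% with calls in 3 of 3 WT lists, all among sets of other sizes. Within 1 Mb the shares were 42.0% and 52.3%. The longest run of KO-favouring regions within 1 Mb held 14. Among the members the longest held 9 members over 3212.084 kb of chromosome 6, from the histone and olfactory receptor genes through ZSCAN31 to the MHC class I genes, and 5 of the 9 were called in WT replicates 1 and 2 only. The 5 MHC-II members formed the next run. By chromosome, WT-favouring regions were 3.43% of the regions on chromosome 13, 3.34% on chromosome 5 and 3.03% on chromosome 6, and 0.983% on chromosome 22, where KO-favouring regions were 2.21%. Within 5 Mb of a chromosome end lay 12.6% of the members (interval 10.2 to 15.5) and 13.95% of all regions, but 23.5% (19.8 to 27.7) of the KO-favouring regions.

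The letters of the members were searched for motifs of the pathway in the central 500 bp, on both strands. CCAAT was present in 46.5% of members, 40.6% of KO-favouring and 39.8% of all regions. The STAT-like TTCNNNGAA was present in 16.4%, 15.98% and 12.5%, and the interferon-response-like GAAANNGAA in 22.7%, 18.0% and 16.4%. The telomeric hexamer TTAGGG was present in 13.6%, 15.3% and 15.3%, and GGGTTAGGG, which contains it, in 0.648%, 0.913% and 0.622%. The longer motif was in 4 of the 617 members and 4 of the 438 KO-favouring regions. The members were lower in GC than all regions, as given above, and motif shares matched for base composition were not computed.

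At the edges of the rule, 1488 regions were called in at least 2 WT lists and 1 KO list, and 2557 in 1 WT list and 0 KO lists. The former had a median width of 901.5 bp and median percentiles of 12.02, 12.7 and 15.3 in WT replicates 1, 2 and 3, a little above the members. In 1320 of the 1488 the KO call came from KO replicate 1, the longest list, in 107 from KO replicate 2 and in 61 from KO replicate 3. The latter had a median width of 447 bp, and 1431 of them were called in WT replicate 3.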

How the data were processed

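H3K4me3 ChIP-seq peak lists of 3 WT and 3 ZBTB48 KO U2OS clones were used. Per the labels and methods, the authors used Trimmomatic for trimming and Bowtie2 2.3.5.1 for alignment to GRCh38, discarded reads that were duplicates or mapped to several places, and ran MACS2 2.1.1.2 in broad mode on each library. The deposited lists give each peak a score, a fold enrichment (a linear ratio), a −log10 p and a −log10 q. Broad mode joins enriched stretches at a second, looser cutoff than the one the methods state, and the lowest −log10 q in the deposited lists was close to 1. Peaks on other contigs, 18 to 54 per list, were left out. All values were taken per list and never pooled.

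Consensus regions, placement against GENCODE release 44, distances, base composition and counts of 24-letter words over the reference were computed in Python 3.11.15 with numpy 2.4.6, pandas 2.3.3, scipy 1.17.1 and pysam 0.24.0. The region rule and the distances were tested on simulated lists. An overlap of 1 bp with a peak made a region called in that library. The percentile of a peak is the share of its list with the same or a lower −log10 p. Named were members at promoters of the gene lists, the 12 members with the highest minimum percentile among those called in all 3 WT lists, the 5 widest, and MHC-II and ZBTB48 target genes just outside the rule. Regions named outside this rule are said to have been chosen after their values were seen. The members and lists were chosen with earlier results of these data known. The count of repeated words was added after the data had been seen. The bases of members away from promoters are not reported here. No test was run on the members, since their calls chose them.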

Additional observations from a re-analysis of the deposited data

How the results depend on the processing

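With a −log10 q of at least 3 there were 401 WT-favouring and 272 KO-favouring regions, and 11.2% of the former lay at a protein-coding promoter. With calls in 3 of 3 lists against 0 of 3 the numbers were 102 and 85, and the share 10.8%. A fold enrichment of at least 4 gave 2624 and 201 regions and a share of 73.7%. A peak that had to cover 50% of the region gave 4060 and 466 regions and a share of 70.0%. The median width of the members was 5102 and 4038.5 bp under these 2 settings. The part of the 2 WT lists with higher and wider peaks in this was not tested. Equal lists of 21712 peaks gave 697 and 384. WT replicate 3 alone against the KO lists gave 1797 regions. Leaving out each replicate gave from 204 to 1935 WT-favouring and from 137 to 916 KO-favouring regions. The rule was stricter without a list of the favoured genotype, as both remaining lists had to hold a peak, and looser without one of the other. The extremes came without WT replicate 2 (204) and without KO replicate 1 (1935 and 137), and without WT replicate 3 there were 916 KO-favouring regions. The promoter share ranged from 6.10% to 9.21% under these omissions. It was 16.7% with the 5′ end of any annotated transcript and 15.6% with a window of 3 kb. The share within 5 kb of a shared region was 45.8% without WT replicate 3, 8.13% without WT replicate 1 and 7.35% without WT replicate 2.

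No paired analysis was possible because the results come from no test, although the labels number the replicates of both genotypes alike. Peak lists give no depth, and the distance of an uncalled region from a list's threshold was not measured. The share of repeated regions was compared under settings chosen after seeing the data, and was 12.8% away from gene promoters and 10.4% in regions called in WT replicate 3, against 11.3% overall.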

Other observations

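Of the 10 telomere-binding and telomerase genes, TERT alone had a region on the opposite side, and it was named after its values were seen. TERT encodes the catalytic subunit of telomerase, and its promoter held a KO-favouring region. Of the protein-coding genes, 22 had a KO-favouring region within 1 kb of the 5′ end, against 49 with a WT-favouring one.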
